A study of Mus musculus with 12 samples.

Results

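The genes of cholesterol and fatty acid synthesis were examined in RNA-Seq of mouse epiblast-like cells (EpiLCs) with and without the histone demethylase gene Kdm5c (called Smcx in the labels). The members were 32 genes chosen by name for their roles, with earlier results of these data known. Of these, 32 of 32 were found in both deposited tables, which list 22911 genes each. They comprised 7 genes of the mevalonate pathway, 11 genes from squalene to cholesterol, 5 regulators of sterol sensing, 2 genes of sterol transport and 7 genes of fatty acid synthesis. Counted with the fatty acid genes was Lpin1, which acts in lipid assembly. There were 4 groups of 3 samples: female Kdm5c fl/fl controls (fWT), female Kdm5c Δ/Δ mutants (fKO), male Kdm5c flY controls (mWT) and male Kdm5c ΔY mutants (mKO). The control cells carried the floxed but intact allele, and the mutant cells carried the Δ allele, which lacks the exons of the catalytic JmjC domain after deletion by Zp3-Cre, a recombinase driven by a promoter active in oocytes. Every sample was an EpiLC culture made from embryonic stem cells (ESCs) by 48 h with FGF2 and Activin A, after culture in inhibitors of MEK and GSK3 with LIF. The labels give the strain C57BL/6J, while the study describes the floxed allele on a mixed background. The 3 samples of a genotype were 3 independent ESC lines, and the ESCs had been derived and kept on feeder fibroblasts.

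Cholesterol is built from acetyl-CoA. The mevalonate pathway makes isoprenoid units and joins them to farnesyl diphosphate, squalene synthase commits them to sterols, and a chain of oxidations and reductions turns lanosterol into cholesterol. Fatty acids are made from the same precursor, which ATP citrate lyase releases from citrate. Both branches are driven by SREBP transcription factors: Scap carries them out of the endoplasmic reticulum when sterol is low, and the Insig proteins hold Scap back when sterol is high. SREBP-2, from Srebf2, acts mainly on sterol genes, and SREBP-1, from Srebf1, mainly on fatty acid genes. Excess sterol leaves cells through exporters such as Abca1, a target of the oxysterol receptors LXR.

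SREBPs bind the sterol regulatory element together with a factor that binds CCAAT boxes, so both motifs were sought in RefSeq promoter sequences (GRCm38.p6, a later build than the mm9 build of the counts) of 300 bases, from 250 before to 50 after the gene start. Entries were found for 26 of the 32 members. The element searched as TCACNCCAC on both strands was found in 1 of 26 members, Hmgcs1, and in 1.44% of 27025 genes. CCAAT, or its complement, was found in 20 of 26 members (76.9%) and in 41.1% of all genes. These are matches of letters and not measured binding sites. The windows of 30 bases below are from mevalonate pathway genes, the section whose 7 members all lay lower in Kdm5c Δ/Δ EpiLCs. Of these, Acat2 had no match and Fdps had no entry, so neither is shown. CCAAT was found both in members that fell in Kdm5c Δ/Δ and in members that rose, Cyp51, Hsd17b7 and Fasn among the latter. A link between the motifs and the changes was not tested. Each is written along the gene's own strand, 5′ to 3′, with the motif or its complement in capitals. The first shows the TCACNCCAC match of Hmgcs1 (chr13:119690204-119690233, plus strand, motif start at -137 from the gene start). The others show the CCAAT match closest before the gene start in Hmgcs1 (chr13:119690294-119690323, plus strand, -45), Mvk (chr5:114444243-114444272, plus strand, -14), Pmvk (chr3:89454393-89454422, plus strand, -136), Mvd (chr8:122443432-122443461, minus strand, -27) and Idi1 (chr13:8885580-8885609, plus strand, -14).
Hmgcs1 sterol element: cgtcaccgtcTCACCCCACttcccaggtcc
Hmgcs1 CCAAT: tccccgcctctcATTGGctgaaagcggatc
Mvk CCAAT: tccagctctctgATTGGcctcaggaagaca
Pmvk CCAAT: aactcaggttggCCAATtcacagcatctag
Mvd CCAAT: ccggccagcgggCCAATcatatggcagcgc
Idi1 CCAAT: gtccaaggtgccATTGGctggcgaccgaca

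Values are normalized counts, which are reads divided by the size factor of their library. The tables hold means over 3 libraries, from which the reads of single libraries were worked out. The libraries were named A, B and C within each group by falling size factor and cannot be matched to ESC lines. Between 5516216 and 11092731 reads per library were recovered. The floxed gene itself was at 2336, 2429 and 2315 normalized counts in Kdm5c fl/fl and at 1406, 1447 and 1505 in Kdm5c Δ/Δ, and fell by 0.70 ± 0.05 (SE) on the log2 scale. In males it was at 2195, 2110.1 and 2371 in Kdm5c flY and at 1897, 1943 and 1976 in Kdm5c ΔY, with an adjusted p of 0.274. The counts cover the whole gene and do not test the deleted exons. Of the male libraries, B of Kdm5c flY and A of Kdm5c ΔY stood apart from their groups. Over 9701 genes whose mean was 100 or more, the SD of log2 ratios was between 0.38 and 0.41 for Kdm5c flY pairs with library B against 0.17 for A with C, and between 0.53 and 0.55 for Kdm5c ΔY pairs with library A against 0.17 for B with C. Female pairs had SDs between 0.15 and 0.19. Libraries A and C of Kdm5c flY also held 8133 and 6277 reads over 4982 nearly silent genes, where library B of Kdm5c flY held 736. These genes were chosen for a mean under 0.5 normalized counts over the libraries of the other groups. The low values of those libraries, between 324 and 682 reads, follow from that choice.

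The EpiLC markers Fgf5, Otx2 and Pou5f1 were detected in every library, but EpiLC markers moved with genotype, as did those of other cell states. Markers counted as risen or fallen had an adjusted p under 0.05 by limma. That held for 50.0% of all genes tested in females and 7.78% in males. Among genes whose mean was 100 or more it held for 68.3% and 11.9%. Of 8 formative epiblast markers, 4 rose and 3 fell in Kdm5c Δ/Δ, and their summed level went from between 9415 and 9666 normalized counts to between 15688 and 16357. In Kdm5c ΔY 3 fell, Fgf5, Pou3f1 and Otx2, with a median log2 change of -1.05 over the list and a sum of 6795 to 10893 against 10151 to 17742 in Kdm5c flY. Otx2 went from 1363 ± 270 (SD, n = 3) to 408 ± 34.3 in males. Of 4 core pluripotency markers, Pou5f1 fell in females from 3602 ± 86.5 to 3134 ± 28.1, and Sox2 rose from 351 ± 17.0 to 1820.1 ± 146. Utf1 rose in females from 2548 ± 84.1 to 3459 ± 177. It was the only core marker called in males, where it fell from 3757 ± 265 to 2094 ± 267. In Kdm5c Δ/Δ, 11 of 12 endoderm markers rose, and their summed level was between 4501 and 4662 normalized counts against 518 to 545 in Kdm5c fl/fl. In the same comparison 7 of 8 markers of naive pluripotency rose, from a summed 965 to 998 up to 3033 to 3193, and 4 of 8 fibroblast markers fell, from 2306 to 2362 down to 777 to 833. In Kdm5c ΔY, 5 of 8 fibroblast markers rose, from a summed 647 to 881 up to 4288 to 4866, and 5 of 8 naive markers rose, from 1446 to 2588 up to 4120 to 7365. The highest counts in the fibroblast sums were those of Col1a1, from 225 ± 25.7 to 2332 ± 395 in males, and Col1a2, from 284 ± 66.4 to 1642 ± 90.7. The other 3 fibroblast markers, Thy1, Lum and Dcn, were not called in males and had log2 changes below 0. The endoderm markers summed to 645 in library A of Kdm5c ΔY and to 3638 and 3629.5 in B and C, against 1923 to 2899 in Kdm5c flY. No gene of the endoderm, naive and fibroblast lists was at 0 reads in all libraries of a group. The part of these markers in the results below was not tested, and in bulk samples fewer cells of a type cannot be told apart from less RNA per cell.

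Per kb of exon, the members spanned a wide range of levels in Kdm5c fl/fl. The highest level was that of Fdps, which makes farnesyl diphosphate, at 1177 ± 114 (SD, n = 3) normalized counts per kb, followed by the sterol sensor Insig1 at 955 ± 5.50 and the fatty acid desaturase Scd2 at 773 ± 53.1. Scd2 and Acly, which was at 756 ± 44.3, did not differ beyond their spread. Lowest were Insig2 at 47.6 ± 5.08, Tm7sf2 at 28.7 ± 2.89 and Abca1 at 3.37 ± 1.02. In the other 3 groups Fdps, Insig1 and Scd2 held places between 1 and 5, and Tm7sf2 and Abca1 held the last places, 30 and 31. The level per kb of Hmgcs1 is left out because the mm9 annotation used (GENCODE M1) gave no exon length for it. Fdft1 shares 26.9% of its exon bases with Ctsb and Scap 18.9% with 5830462I19Rik, each on the opposite strand, and Tm7sf2 shares 15.3% with 1110014N23Rik on its own strand, so reads there cannot be assigned with certainty.

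**Figure D1:**
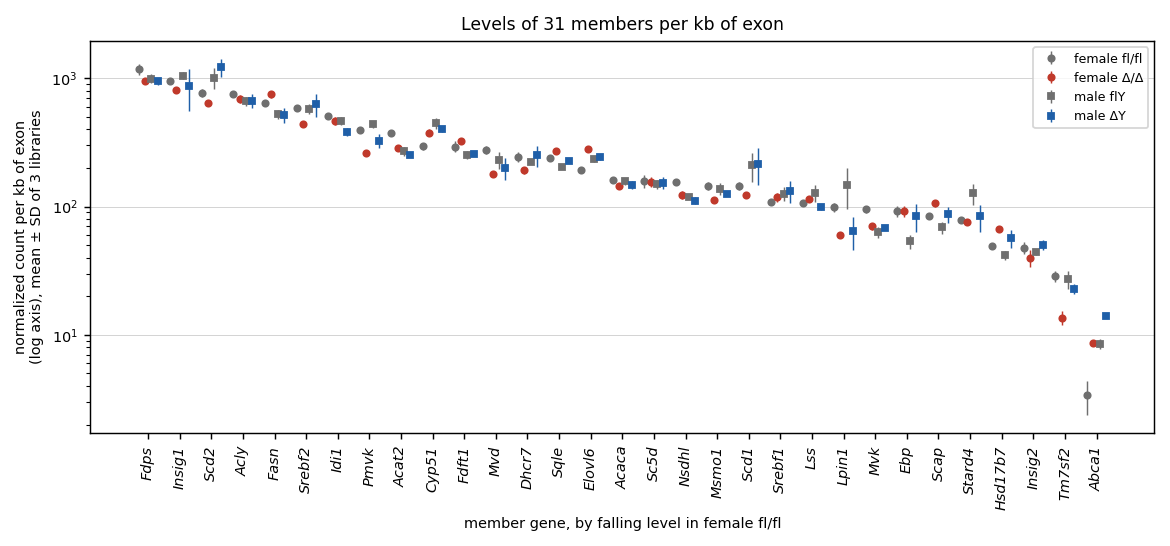
Normalized count per kb of exon (log axis) of 31 members in the 4 groups, as mean ± SD of 3 libraries, ordered by the level in female Kdm5c fl/fl. Levels run from 1177 for Fdps to 3.37 for Abca1 in female controls.

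To ask what loss of Kdm5c did to these genes in females, Kdm5c Δ/Δ was compared with Kdm5c fl/fl. Limma called 23 of 32 members at an adjusted p under 0.05, 7 higher and 16 lower in the mutant. Over all 19583 genes tested 50.0% were called, 25.4% higher and 24.6% lower. At a mean of 100 normalized counts or more, a limit set after the data were seen, 68.3% of all genes and 21 of 30 members (70.0%) were called, so the share of members called was near that of genes at like levels. The median log2 change of the members was -0.14 against 0.00 for all genes tested. The 3 libraries of the groups did not overlap for 26 members, 9 higher and 17 lower, while this held for 54.8% of all genes, 27.6% higher and 27.2% lower. The female counts of the pathway sections below are to be read against these shares.

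The 7 mevalonate pathway genes lay lower in Kdm5c Δ/Δ. All 7 had every mutant library below every control library, as 27.2% of all genes tested did. Limma called 6 of the 7 (85.7%), against 50.0% of all genes and 68.3% of those with a mean of 100 or more. The members were chosen with earlier results of these data known, so these shares are no test of the section. The median log2 change was -0.38. Mvd, the decarboxylase that makes isopentenyl diphosphate, was at 477, 524 and 462 normalized counts in Kdm5c fl/fl and at 316, 316 and 319 in Kdm5c Δ/Δ. Pmvk, the kinase one step earlier, was at 578, 601 and 619 in controls and at 411, 399 and 383 in mutants. Neither gene had overlapping groups, and the changes were -0.62 ± 0.07 (SE) for Mvd with an adjusted p of 8.7e-07 and -0.59 ± 0.07 for Pmvk with an adjusted p of 5.1e-07. Mvk, mevalonate kinase, went from 266, 237 and 260.1 to 201, 183 and 178 (-0.44 ± 0.09, adjusted p = 4.4e-04). Acat2, the cytosolic thiolase that starts the pathway, went from 968, 973 and 904 to 759, 741 and 686 (-0.38 ± 0.06, adjusted p = 4.6e-05). Fdps went from 1301, 1580.0 and 1474 to 1122, 1213 and 1209 (-0.29 ± 0.07, adjusted p = 0.00139). These changes are of 1.23- to 1.53-fold. The smallest called change was that of Hmgcs1, which condenses acetyl-CoA with acetoacetyl-CoA, from 3793, 3762 and 3572 to 3189, 3508 and 3384 (-0.14 ± 0.05, adjusted p = 0.0382). It was called in 2 of the 6 fits that leave out 1 library, and lost without A (adjusted p = 0.130) or B of Kdm5c fl/fl or without A or C of Kdm5c Δ/Δ. Idi1, the isomerase of isopentenyl diphosphate, was at 1525, 1408 and 1424 in controls and at 1230.3, 1407 and 1363 in mutants, with an adjusted p of 0.105. Its groups nearly touched, with the lowest control library at 1407.6 and the highest mutant library at 1406.6.

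**Figure D2:**
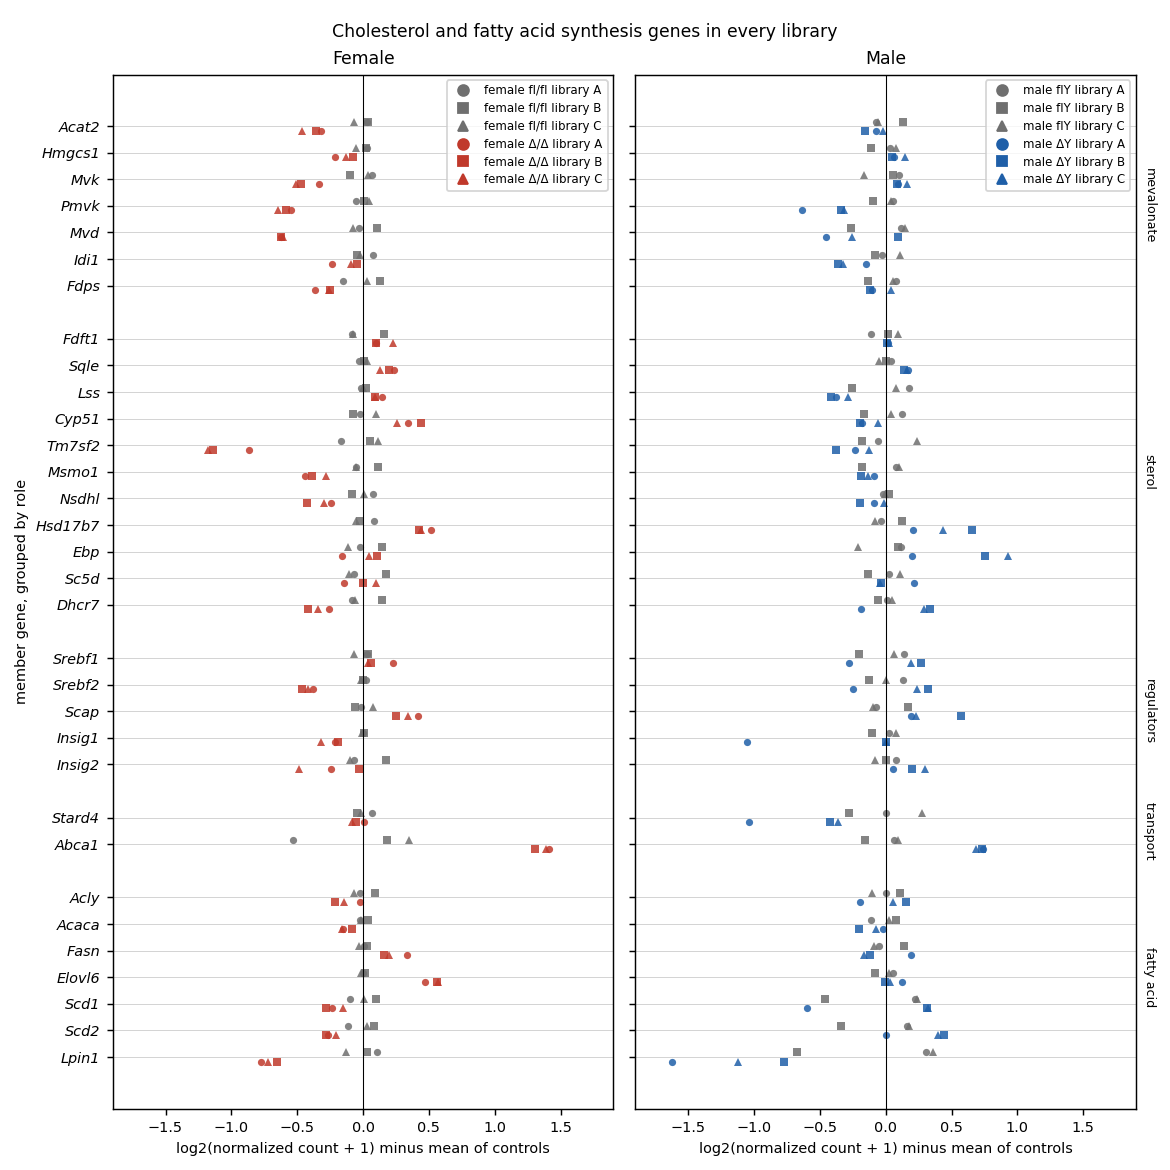
log2(normalized count + 1) of each member in each library, minus the mean of the controls of that sex, for females (left) and males (right). Symbols stand for libraries A, B and C, grey for controls and colour for mutants. In females the mutant libraries of the 7 mevalonate genes all lie left of the controls, for Idi1 only just. In males library A of ΔY lies apart from B and C for Insig1 and Scd1.

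The 11 genes from squalene to cholesterol moved in both directions, with 3 higher, 4 lower and a median log2 change of -0.00. Tm7sf2, a sterol reductase, had the largest fall of any member. It was at 88.5, 103 and 108 in Kdm5c fl/fl and at 54.1, 44.6 and 43.5 in Kdm5c Δ/Δ (-1.06 ± 0.16, adjusted p = 1.8e-05), which is 2.09-fold lower with no overlap, and its exon overlap given above applies. Msmo1 and Nsdhl, which act in turn to remove the methyl groups of lanosterol, fell by 0.37 ± 0.07 and 0.32 ± 0.07 on the log2 scale. Msmo1 was at 858, 966 and 859 in controls and 657, 683 and 734 in mutants. Dhcr7, the last reductase before cholesterol, went from 867, 1012 and 882 to 768, 686 and 723 (-0.34 ± 0.07, adjusted p = 4.4e-04). In the opposite direction, Cyp51, the lanosterol demethylase, was at 1248, 1208 and 1361 in controls and at 1609.6, 1721 and 1518 in mutants (0.34 ± 0.06, adjusted p = 1.5e-04). Hsd17b7, the ketoreductase that follows Nsdhl, rose from 264, 245 and 240.1 to 357, 335 and 338 (0.46 ± 0.08, adjusted p = 6.5e-05). Sqle, squalene epoxidase and a flux-controlling step, rose by 0.19 ± 0.05, from between 1288 and 1346 to between 1441 and 1550.1, with no overlap. Of the 4 not called, Lss had separate groups (1139.8 to 1172 in controls and 1229.8 to 1277 in mutants, adjusted p = 0.103), while Fdft1, Ebp and Sc5d had overlapping ones.

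Among the regulators, the transcription factor gene Srebf2 was at 2957, 2908 and 2886 in Kdm5c fl/fl and at 2237, 2109 and 2188 in Kdm5c Δ/Δ. The groups did not overlap, and it fell by 0.42 ± 0.05 with an adjusted p of 1.9e-06. Insig1, itself a target of SREBPs, went from 2533, 2541 and 2512 to 2186, 2211 and 2025 (-0.24 ± 0.05, adjusted p = 0.00102). Scap rose from 433, 417 and 460.3 to 581, 520.2 and 554 (0.34 ± 0.07, adjusted p = 4.8e-04). Srebf1 was between 588 and 630.2 in controls and between 632 and 721 in mutants, with an adjusted p of 0.197, and Insig2 had overlapping groups with an adjusted p of 0.094.

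Abca1, the cholesterol exporter, had the largest change of any member. It was at 23.1, 38.4 and 43.4 normalized counts in Kdm5c fl/fl and at 91.7, 85.0 and 89.9 in Kdm5c Δ/Δ (1.37 ± 0.21, adjusted p = 2.3e-05), which is 2.58-fold higher. Its control values rest on 23, 35 and 39 reads. Stard4, which carries sterol between membranes, was between 421 and 456 in controls and between 410.3 and 438 in mutants, and its groups overlapped.

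Of the 7 fatty acid genes, 2 rose and 4 fell, with a median of -0.14. Elovl6, which extends palmitate, was at 1145, 1159 and 1137 in Kdm5c fl/fl and at 1588, 1692 and 1702 in Kdm5c Δ/Δ (0.53 ± 0.05, adjusted p = 2.0e-07). Fasn, fatty acid synthase, rose from 6355, 6454 and 6213 to 7976, 7084 and 7251 (0.23 ± 0.06, adjusted p = 0.00241). Both had separate groups. Lpin1, a phosphatidate phosphatase of lipid assembly, was at 605, 574 and 514 in controls and at 329, 357 and 342 in mutants (-0.72 ± 0.07, adjusted p = 2.3e-07). The desaturase genes fell less, Scd2 by 0.25 ± 0.06 from between 3894 and 4459.9 to between 3453 and 3651, and Scd1 by 0.22 ± 0.07 from between 654 and 748 to between 576 and 631. Scd1 and Scd2 are related copies of which only uniquely mapped reads were kept. Acaca, which makes malonyl-CoA, was between 1600.5 and 1671 in controls and between 1454 and 1532 in mutants (-0.14 ± 0.05, adjusted p = 0.0436), and was called only in the fit without library B of Kdm5c Δ/Δ among the 6 fits without 1 library. Scd1 lost its call without library B of Kdm5c fl/fl (adjusted p = 0.0588). Acly was not called (adjusted p = 0.090).

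**Figure D3:**
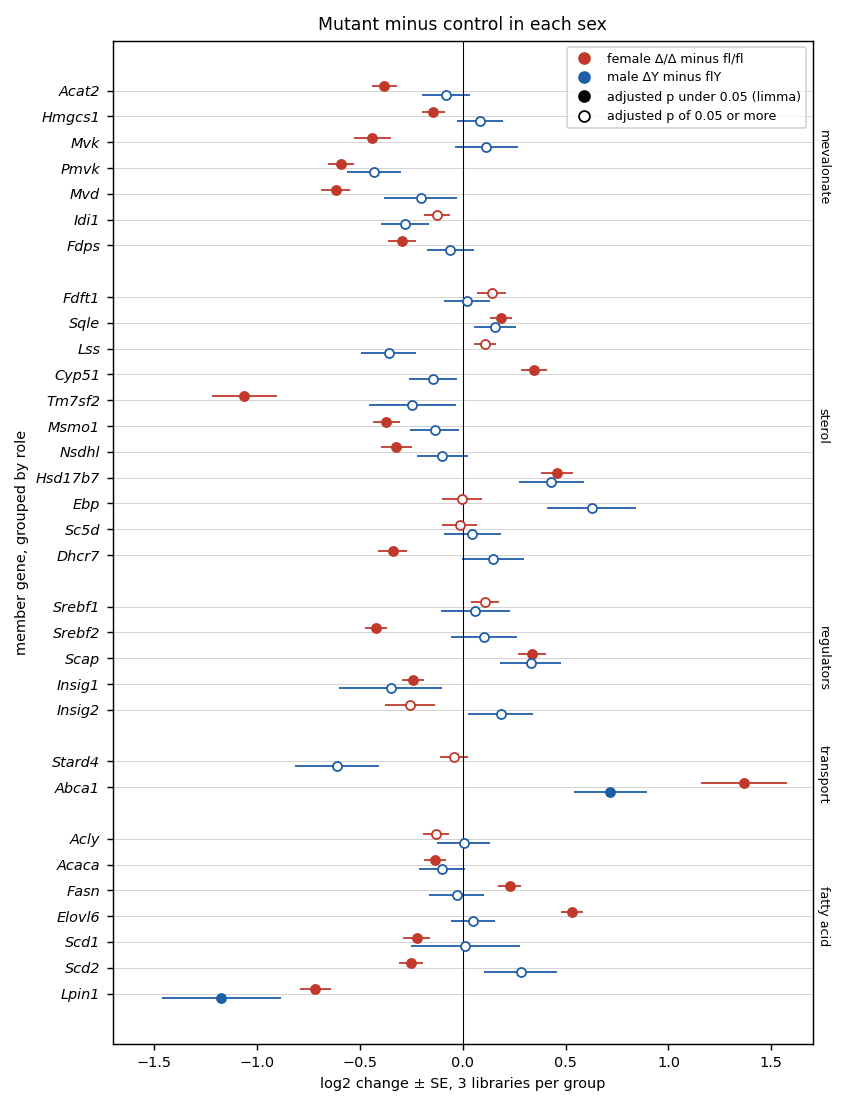
log2 change of each member, mutant minus control, in females (red) and males (blue), with SE bars from limma on 3 libraries per group; filled points have an adjusted p under 0.05. In females 23 points are filled and in males 2, Abca1 at 0.72 and Lpin1 at -1.17.

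The same question in males was asked by comparing Kdm5c ΔY with Kdm5c flY. Limma called 2 of 32 members, Abca1 higher and Lpin1 lower, while 7.78% of all 21900 genes tested were called, 4.19% higher and 3.58% lower. Among genes whose mean was 100 or more, 11.9% of all genes and 2 of 31 members (6.45%) were called. The median log2 change of the members was 0.01 against -0.16 for all genes and 0.02 for genes whose mean was 100 or more. Groups did not overlap for 10 members, 5 higher and 5 lower, and for 26.5% of all genes, 12.6% higher and 13.9% lower. The SEs of the members were between 0.10 and 0.29, where those in females were between 0.05 and 0.21.

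Abca1 was at 91.7, 78.6 and 93.4 in Kdm5c flY and at 147, 146 and 142 in Kdm5c ΔY (0.72 ± 0.18, adjusted p = 0.0387). The groups were separate. Lpin1 was at 998, 506 and 1033 in controls and at 261, 471 and 369 in mutants (-1.17 ± 0.29, adjusted p = 0.0397). Library B of the controls lay near the highest mutant library. Both calls were lost with limma voom (adjusted p = 0.0525 and 0.0539), which called 0 members, 8 of them at an unadjusted p under 0.05, as limma on log2 values did for 8. Abca1 kept its call without the libraries that stood apart, B of Kdm5c flY or A of Kdm5c ΔY, and lost it without any of the other 4 (adjusted p up to 0.151). Lpin1 lost its call without A or C of Kdm5c flY or C of Kdm5c ΔY (adjusted p up to 0.190).

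The members with separate groups that were not called were Pmvk, Idi1, Lss and Stard4, which lay lower in Kdm5c ΔY, and Sqle, Hsd17b7, Ebp and Scap, which lay higher. Pmvk was at 689.9, 620.3 and 681 in controls and at 426, 524 and 533 in mutants (-0.43 ± 0.13, adjusted p = 0.0774). Stard4 was at 699.9, 577 and 845 in controls and at 339, 520.0 and 544 in mutants (-0.61 ± 0.20, adjusted p = 0.104). Ebp, the X-linked sterol isomerase, was at 134, 131 and 106 in controls and at 141, 209 and 235 in mutants (0.63 ± 0.22, adjusted p = 0.114). In library A of Kdm5c ΔY several members stood away from the other libraries. Insig1 was at 1334 there against 2769 and 2777 in B and C, and Scd1 was at 655 against 1227 and 1237. In Kdm5c flY, Scd1 was at 719 in library B against 1156 and 1166, so the groups overlapped for Scd1 and the adjusted p was 0.980.

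Without both libraries that stood apart, leaving 2 against 2, limma called 14 members, 7 higher (Hsd17b7, Ebp, Dhcr7, Srebf2, Scap, Abca1, Scd2) and 7 lower (Pmvk, Idi1, Lss, Cyp51, Msmo1, Stard4, Lpin1), and 43.0% of all genes, 17.7% higher and 25.3% lower. The share of members called (43.8%) was again near that of all genes. Lpin1 was at -1.28 and Abca1 at 0.63 in that fit. This setting was added after the data were seen, and it rests on the library pairs that were most alike in each group. Of Kdm5c flY it keeps A and C, the libraries with 8133 and 6277 reads in genes nearly silent in the other groups, and drops B, with 736. The part of those reads in these calls was not tested.

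**Figure D4:**
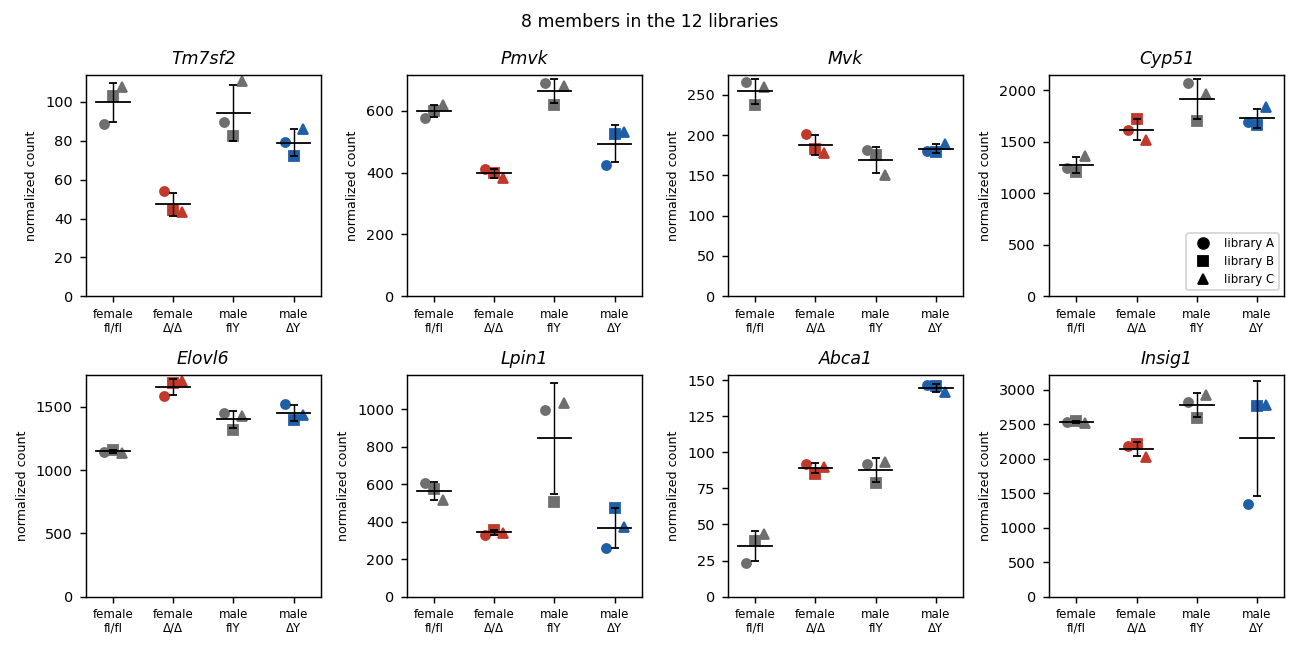
Normalized count of 8 members in the 12 libraries; symbols are libraries A, B and C, lines the mean and bars the SD of 3 libraries, with every axis starting at 0. Abca1 is higher in both mutants, Tm7sf2 and Mvk are lower in female Δ/Δ, and male library B of flY lies away from its group for Lpin1, as A of ΔY does for Insig1.

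The difference between the sexes was tested directly, as the male change minus the female change over all 12 libraries. Limma called 6 of 32 members, while 21.2% of 22014 genes were called, 10.6% positive and 10.7% negative. Among genes whose mean was 100 or more, 32.5% of all genes and 5 of 30 members (16.7%) were called. The signed difference was positive for Mvk (0.55 ± 0.16, adjusted p = 0.0213), Tm7sf2 (0.82 ± 0.24, adjusted p = 0.0288) and Srebf2 (0.52 ± 0.17, adjusted p = 0.0471). These fell in females, by log2 changes of -0.44, -1.06 and -0.42, and their male changes were 0.11, -0.24 and 0.10. It was negative for Elovl6 (-0.48 ± 0.10, adjusted p = 0.00491), Cyp51 (-0.49 ± 0.13, adjusted p = 0.0156) and Lss (-0.47 ± 0.14, adjusted p = 0.0279). Lss changed by 0.11 in females and by -0.36 in males. Elovl6 was between 1320.2 and 1455 in Kdm5c flY and between 1397 and 1523 in Kdm5c ΔY, and Cyp51 was between 1702 and 2073 and between 1664 and 1834, so that both overlapped in males. Elovl6 and Cyp51 were called in 12 of 12 fits without 1 library, Mvk in 7, Tm7sf2 in 6, Lss in 3 and Srebf2 in 2. Mvk was lost without A or C of Kdm5c fl/fl, B or C of Kdm5c Δ/Δ or C of Kdm5c ΔY (adjusted p up to 0.0596), and Tm7sf2 without B or C of Kdm5c fl/fl, B or C of Kdm5c Δ/Δ, A of Kdm5c flY or C of Kdm5c ΔY (up to 0.0763). Lss was held only without B of Kdm5c flY or A or C of Kdm5c ΔY (up to 0.0673 otherwise), and was also lost with scaling by total reads (adjusted p = 0.0740), as Srebf2 was with limma voom (adjusted p = 0.0528). Scaling by total reads gave 5 positive and 2 negative calls in place of 3 and 3. Without both male libraries that stood apart 19 members were called, 12 positive and 7 negative, and 45.6% of all genes, 17.9% positive and 27.8% negative. Over all 12 libraries neither Abca1 (adjusted p = 0.131) nor Lpin1 (-0.46, adjusted p = 0.362) passed the threshold for a difference between the sexes. Lpin1 was called, with the larger fall in males, without B of Kdm5c flY (-0.79, adjusted p = 0.0361) and without both libraries that stood apart (-0.57, adjusted p = 0.00818).

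The controls of both sexes were compared for the levels from which these changes started. The sexes come from 2 separate deposited tables, and a shared scale of their size factors was assumed. The median log2 difference over all genes was -0.17, and -0.22 with scaling by total reads, which called 8 members. Limma called 9 members between Kdm5c fl/fl and Kdm5c flY and 21.5% of all genes, 9.70% higher and 11.8% lower in females. Among genes whose mean was 100 or more, 31.2% of all genes and 8 of 30 members (26.7%) were called. Groups did not overlap for 18 members, 12 higher and 6 lower in females, and for 35.7% of all genes, 17.2% higher and 18.5% lower. Abca1 was 2.55-fold lower in the female controls (-1.35 ± 0.20, adjusted p = 4.9e-04), and Stard4 (-0.68 ± 0.16), Cyp51 (-0.59 ± 0.09) and Elovl6 (-0.29 ± 0.07) were lower too. Abca1 in Kdm5c Δ/Δ, between 85.0 and 91.7, lay within the range of Kdm5c flY, 78.6 to 93.4. Higher in female controls were Ebp (0.78 ± 0.17, adjusted p = 0.00604), Mvk (0.59 ± 0.11), Acat2 (0.47 ± 0.09), Nsdhl (0.38 ± 0.09) and Sqle (0.23 ± 0.07). Sqle lost its call without any 1 library of Kdm5c fl/fl or without C of Kdm5c flY (adjusted p up to 0.104), and with scaling by total reads (0.0911), Elovl6 without A or C of Kdm5c fl/fl or A of Kdm5c flY (up to 0.0585), and Stard4 without C of Kdm5c flY (0.0532). Ebp and Nsdhl are the X-linked members. Ebp was at 208, 234 and 196 in Kdm5c fl/fl against 134, 131 and 106 in Kdm5c flY, and Nsdhl at 465, 416 and 442 against 334, 344 and 338. Without both male libraries that stood apart 20 members were called, 9 higher and 11 lower, and 48.8% of all genes, 19.0% higher and 29.8% lower.

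The sterol and the fatty acid branch were set side by side. Of the 18 sterol branch genes, 3 rose and 10 fell in Kdm5c Δ/Δ with a median of -0.22, and of the 7 fatty acid genes 2 rose and 4 fell with a median of -0.14. Within single mutant libraries the median difference from the control mean was between -0.24 and -0.17 for the sterol branch and between -0.22 and -0.15 for the fatty acid branch, so these ranges overlapped. Within the sterol branch, the mevalonate genes had medians between -0.47 and -0.33 in the mutant libraries and the genes after squalene between -0.14 and 0.09. The summed normalized counts of the whole sterol branch were 16437 to 17112 in Kdm5c fl/fl and 15291 to 15794 in Kdm5c Δ/Δ, which did not overlap. Those of the mevalonate genes were 8716 to 9083 in Kdm5c fl/fl and 7228 to 7767 in Kdm5c Δ/Δ, while those of the fatty acid genes, of which Fasn, Scd2 and Acly have the highest counts, were 18169 to 19319 and 18122 to 19356, and overlapped. In males limma called no sterol branch gene, with 5 at an unadjusted p under 0.05, and the median was -0.07. It called 2 without B of Kdm5c flY (Pmvk, Lss), 3 without A of Kdm5c ΔY (Idi1, Hsd17b7, Ebp) and 8 without both. Of the 7 fatty acid genes 1, Lpin1 of lipid assembly, was called over all male libraries, with a median of 0.00, and 2 without both (Scd2, Lpin1). None of the other fatty acid genes was called over all male libraries. No test was made between the branches, since the members were chosen with results of these data known.

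**Figure D5:**
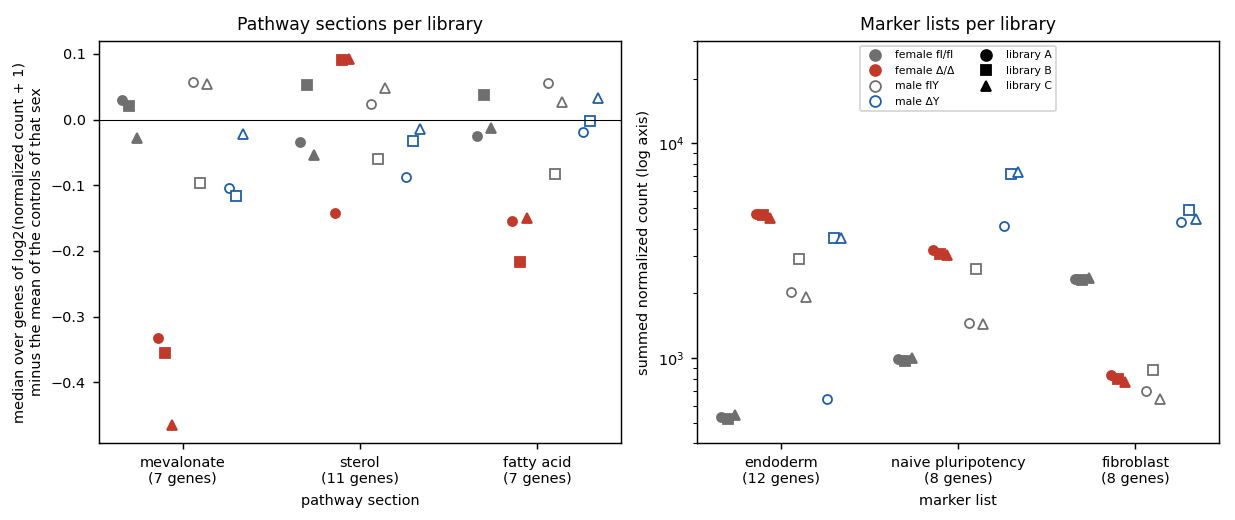
Left, the median over genes of log2(normalized count + 1) minus the mean of the controls of that sex, in each library, for the mevalonate, sterol and fatty acid sections; right, the summed normalized count (log axis) of 3 marker lists in each library. The female Δ/Δ libraries lie at -0.47 to -0.33 for the mevalonate genes, and their endoderm sum, 4501 to 4662, lies above the 518 to 545 of fl/fl.

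Beyond the members, 105 further genes of the same pathways were in the tables. In females 30 of them rose and 35 fell (61.9% called, against 50.0% of all genes and 68.3% of those with a mean of 100 or more), and in males 4 rose and 5 fell (8.57%, against 7.78% and 11.9%). The counts of the single lists below are to be read against these shares. Of the 14 other sterol synthesis genes 4 rose and 4 fell in Kdm5c Δ/Δ, among them Cyb5b, an outer mitochondrial cytochrome b5, from 1244 ± 43.0 (SD, n = 3) to 2226 ± 50.2, and Fdxr, ferredoxin reductase, from 128 ± 3.38 to 73.4 ± 5.68. In males Cyb5r3, the reductase that serves cytochrome b5, rose from 1384 ± 87.5 to 2669 ± 782, while in females it fell from 1801 ± 104 to 1572 ± 67.6, and this difference between the sexes was called. Of the 20 genes of SREBP control and lipoprotein uptake 10 rose and 6 fell in females. The endocytic receptor Lrp2 rose from 2134 ± 43.9 to 7196 ± 105, while Lrp1 fell from 1544 ± 40.2 to 639 ± 17.2 and the HDL receptor Scarb1 from 436 ± 5.43 to 175 ± 7.15. In males Lrp1 rose, from 1148 ± 66.5 to 1627 ± 118. Of the 16 genes of LXR response, efflux and esterification 5 rose and 4 fell in females. They included Abcg1, another sterol exporter, at 16.6 ± 5.17 in controls and 41.2 ± 2.74 in mutants. In males Soat1, which esterifies cholesterol, fell from 2835 ± 216 to 1910.3 ± 218.

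Of the 34 other genes of fatty acid synthesis and activation 6 rose and 10 fell in females. The acyl-CoA synthetase genes Acsl3 and Acsl4 moved in opposite directions, Acsl3 from 1175 ± 20.4 down to 641 ± 13.0 and Acsl4 from 850.4 ± 31.7 up to 1311 ± 54.5. In males 2 of the 34 fell, Ptplb, a dehydratase of chain elongation, from 1035 ± 89.2 to 607 ± 150, and malic enzyme Me1 from 534 ± 80.5 to 341 ± 23.8. Of the 21 genes of fatty acid oxidation, 5 rose and 11 fell in females, with a median log2 change of -0.33. That is 76.2% of the list, against the 50.0% and 68.3% above, and 25.4% of all genes were called higher and 24.6% lower. Slc25a20, the mitochondrial carnitine carrier, rose in both sexes, from 142 ± 25.9 to 321 ± 22.7 in females and from 190.5 ± 11.2 to 444 ± 114 in males. Cpt1a, which loads fatty acids onto carnitine, fell in males from 978 ± 32.1 to 614 ± 61.4, and was at 558 ± 25.0 and 664 ± 21.9 in Kdm5c fl/fl and Kdm5c Δ/Δ. Decr1, a reductase used in the oxidation of unsaturated fatty acids, fell in females from 248 ± 14.5 to 125 ± 11.9.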

How the data were processed

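The authors mapped single-end reads of 50 bases from ribosome-depleted, strand-specific libraries to mm9 with TopHat 2.1.0 (Bowtie2 2.2.6.0 per the submitters' processing notes), allowing 1 mismatch at most, and kept reads with a unique position. The reporting summary names HTseq for counting. The annotation and strand setting of the counting are not given in the sources used here. The signal columns the authors deposited, in 2 tables of 1 sex each, are mean normalized counts per genotype: reads divided by a DESeq size factor per library and averaged over 3 libraries. The deposited fold changes and p-values are the authors' own comparisons and were not used.

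Each deposited mean is a sum of 3 whole numbers times library steps. Low-count genes gave the steps, after which the reads of genes with a mean up to 10000 were solved. Every gene searched had 1 solution, and 51 to 77 genes per genotype lay above that limit. The reads solved make up 86.0% to 91.4% of the normalized reads. In simulated data 100% of the reads solved were right. Genes with at least 1 read in the libraries of a fit were tested with limma 3.58.1 (R 4.3.3, intensity trend) on log2(normalized count + 1), within each sex, and over all 12 libraries for the male minus the female change and for the controls. Fold changes on this scale understate those of low genes. Adjusted p-values are Benjamini-Hochberg values over all genes of a fit, with a threshold of 0.05. Tested on simulated reads in which 200 genes changed 2-fold, limma found 96.5% of them for the female, 50.0% for the male and 51.0% for the difference between sexes, with 6.31%, 6.54% and 6.42% of calls false. Each simulated gene was drawn independently with its own spread, up to a cap, so no library stood apart as a whole. Far fewer genes changed there than limma called in the data, so these shares need not hold for the data. The labels call the samples replicates, and the study names 3 ESC lines per genotype.

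Alternatives were a pseudocount of 0.1, limma voom, a minimum mean of 10, scaling by total recovered reads, leaving out each library, and, added after seeing the data, leaving out both male libraries that stood apart. Exon lengths and overlaps came from mm9 with GENCODE M1. The members and lists were chosen with earlier results of these data known. Named were all members, Kdm5c, and, among the other lists, genes from the up to 3 per list and sex with the largest change past the threshold, and markers by their lists. Intervals and floors for single samples were not needed, and depth covers counting error only. Python 3.11.15, numpy 2.4.6, pandas 2.3.3, numba 0.67.0 and matplotlib 3.10.9 were used. Some genes of the other lists are not reported here.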

Additional observations from a re-analysis of the deposited data

Results flagged for a closer look

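The genotype effect of 6 of 32 members differed between the sexes by the interaction test over all 12 libraries. This was limma on the male change minus the female change, on the log2 scale. Of all 22014 genes tested 21.2% were called, and at a mean of 100 or more 32.5% of genes and 16.7% of members. The differences were 0.55 for Mvk, 0.82 for Tm7sf2 and 0.52 for Srebf2, and -0.47 for Lss, -0.49 for Cyp51 and -0.48 for Elovl6. For Elovl6 and Cyp51 the call held in each of the 12 fits without 1 library, with adjusted p up to 0.0178 and 0.0489. For Srebf2 it held in 2 of them, those without A of Kdm5c flY or A of Kdm5c ΔY, and the adjusted p went up to 0.114. The fibroblast marker sums given above, with Col1a1 and Col1a2 as their highest counts, moved with genotype in opposite directions in the sexes. The part of the marker sums in these differences was not tested.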

How the results depend on the processing

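In females the number of members called was 23 with a pseudocount of 0.1, limma voom and a minimum mean of 10 as well, and 25 with scaling by total reads, 6 higher and 19 lower, where Sqle was no longer called. That scaling gave medians of -0.29 for the sterol branch and -0.20 for the fatty acid branch. Leaving out 1 library put the fatty acid median between -0.18 and -0.12. In males the members called were 0 with limma voom, between 0 and 5 without 1 library (0 without A or C of Kdm5c flY or C of Kdm5c ΔY, 4 without B of Kdm5c flY, 1 without B and 5 without A of Kdm5c ΔY) and 14 without both libraries that stood apart. For the difference between sexes they were between 2 and 11 without 1 library (2 without C of Kdm5c fl/fl or B or C of Kdm5c Δ/Δ, 3 without A or B of Kdm5c fl/fl or C of Kdm5c ΔY, and 11 without A of Kdm5c ΔY) and 19 without both. Between the controls they were between 7 and 15 without 1 library (15 without B of Kdm5c flY and 14 without A of Kdm5c ΔY) and 20 without both.

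The genes that changed sign were not called in the fits of all libraries. In females the changes without 1 library ran from -0.062 to 0.074 for Ebp and -0.071 to 0.073 for Sc5d. In males, limma voom gave -0.00077 for Acly, scaling by total reads -0.0090 for Acly and -0.00036 for Scd1, and leaving out both libraries -0.11 for Sc5d and -0.026 for Elovl6. Without 1 library, the male changes ran from -0.035 to 0.066 for Fdft1, -0.039 to 0.10 for Sc5d, -0.043 to 0.23 for Srebf1, -0.0078 to 0.28 for Srebf2, -0.53 to 0.0013 for Insig1, -0.071 to 0.10 for Acly, -0.14 to 0.039 for Fasn and -0.22 to 0.32 for Scd1. For the difference between sexes, scaling by total reads gave 0.025 for Sqle, 0.027 for Hsd17b7, 0.0086 for Srebf1 and 0.050 for Scap, and leaving out both libraries gave 0.15 for Hsd17b7, -0.091 for Sc5d, 0.021 for Srebf1, 0.15 for Scap and 0.19 for Insig1, the last with an adjusted p of 0.0383 by limma. Without 1 library these ran from -0.14 to 0.085 for Hsd17b7, -0.027 to 0.12 for Sc5d, -0.15 to 0.12 for Srebf1, -0.12 to 0.078 for Scap, -0.29 to 0.24 for Insig1 and -0.018 to 0.090 for Acaca. Between the controls, scaling by total reads gave -0.027 for Hmgcs1, -0.046 for Srebf2 and -0.042 for Acaca, and leaving out both libraries gave -0.021 for Hmgcs1, -0.0020 for Tm7sf2, -0.013 for Msmo1 and -0.048 for Srebf2. Without 1 library these ran from -0.021 to 0.076 for Hmgcs1, -0.0020 to 0.21 for Tm7sf2, -0.013 to 0.13 for Msmo1, -0.0084 to 0.14 for Sc5d, -0.048 to 0.080 for Srebf2 and -0.035 to 0.060 for Acaca. The causes were not tested.

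No paired analysis was possible because the libraries worked out from the group means carry no replicate number. In simulated data, drawn gene by gene with each gene's spread in the male libraries, 50.0% of the 2-fold changes were found. No library stood apart as a whole in that simulation, so the share need not hold for the data. Smaller changes were not simulated.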
